A study of Mus musculus with 2 samples.

Results

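The interferon-inducible p200 family was followed in interscapular brown adipose tissue (iBAT) of wild-type (WT) and Ucp1-KO (KO) mice. The 9 members were Ifi203, Ifi204, Ifi207, Ifi208, Ifi209, Ifi211, Ifi213, Mndal and Aim2, taken by gene symbol out of the 27179 genes that the count tables list. The study asked what UCP1, the uncoupling protein of thermogenic fat cells, does to the inflammatory state of adipose tissue. In the comparison used here, untreated tissue of 20-day-old mice on the Bl6N (C57BL/6N) background was sequenced as polyadenylated RNA. Each genotype was represented by 1 library, and each library was made from iBAT of 3 animals pooled before extraction. The design text describes all animals as male, and no restriction of the Ucp1 deletion to one cell type is given. With 1 library a genotype there is no spread between animals and no test, so every difference below is a difference between these 2 libraries.

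The p200 proteins carry a pyrin domain, through which they bind other proteins, and HIN domains, through which several of them bind DNA. Their genes lie side by side on mouse chromosome 1, expanded by duplication, and most of them are switched on by interferons. Aim2 encodes the cytosolic DNA sensor that assembles an inflammasome with the adaptor ASC, whereas the product of Ifi204 has been linked to interferon induction through STING. Ifi203, Mndal, Ifi207, Ifi209 and Ifi211 encode mainly nuclear proteins with less settled functions, and Ifi208 and Ifi213 are also listed under the names Pydc3 and Pydc4, for products built around the pyrin domain.

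In the GRCm39 build with GENCODE M39 annotation, the 9 members lay between positions 173178445 and 173770436 of chromosome 1, a span of 592 kb, and all were annotated as protein-coding. From low to high coordinate the order was Aim2, Ifi213, Ifi209, Ifi208, Ifi207, Ifi204, Mndal, Ifi211 and Ifi203. Of these, 6 were on the minus strand, and Aim2, Ifi209 and Ifi208 were on the plus strand. The pseudogene Ifi203-ps lay between Ifi204 and Mndal.

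The promoter letters of the members are shown because they are the closest thing in the sequence to the shared interferon control that names the family. The search used the core of the interferon-stimulated response element (ISRE), GAAANNGAAA, on both strands of RefSeq promoter windows reaching from 250 bases before to 50 bases after a start site. A window was present for 8 of the 9 members, without Ifi204, and 6 of these 8 held the core. Among all 27025 genes with a window 3.99% held it, and among the 11568 with a measurable level in these libraries 3.72%. Some member windows are near-copies of each other, as given below, so the 6 are not separate occurrences. The windows were placed in GRCm39 by exact match. Each line reads 5′ to 3′ on the strand of the gene, with the core in capitals and 20 bases on either side.
Ifi203 (chr1:173770064-173770113, minus strand): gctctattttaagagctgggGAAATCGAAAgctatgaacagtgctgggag
Mndal (chr1:173707760-173707809, minus strand): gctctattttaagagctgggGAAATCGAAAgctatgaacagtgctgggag
Ifi207 (chr1:173569387-173569436, minus strand): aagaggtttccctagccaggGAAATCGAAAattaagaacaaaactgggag
Ifi211 (chr1:173740620-173740669, minus strand): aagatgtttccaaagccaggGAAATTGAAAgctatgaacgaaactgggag
Ifi208 (chr1:173501153-173501202, plus strand): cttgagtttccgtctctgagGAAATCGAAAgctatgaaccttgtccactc
Ifi213 (chr1:173426882-173426931, minus strand): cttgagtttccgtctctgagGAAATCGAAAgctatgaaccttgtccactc
Ifi209 (chr1:173458326-173458375, plus strand): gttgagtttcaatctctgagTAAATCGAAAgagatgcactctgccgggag

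The first 6 lines hold the full core. Ifi203 held it at 1 of its 2 listed start sites, and Mndal at both, the printed one and another with the core on the opposite strand. In the printed lines the core began 35 bases before the annotated start in Ifi203, 36 in Mndal, 37 in Ifi211, 41 in Ifi207, 58 in Ifi208 and 73 in Ifi213. The letters GAAATCGAAA occurred in 5 members, and Ifi211 carried GAAATTGAAA at the corresponding place. The line for Ifi209 is its nearest match and differs from GAAATCGAAA by G1T, counted from 1 at the 5′ end of the core. The Aim2 window held no core. A second interferon motif, the gamma-activated sequence TTCNNNGAA, was found in 0 of the 8 members with a window. It was in 9.55% of all genes with a window and 8.25% of those with a measurable level. These matches describe letters only, and no binding was measured.

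The printed stretches of Ifi203 and Mndal were identical, and their whole promoter windows shared 90.7% of their letters. The windows of Ifi207 and Ifi211 shared 85.9%, and those of Ifi208 and Ifi213 shared 89.5%. The members with the same printed stretch thus fell into a pair that was well expressed in iBAT (Ifi203 and Mndal) and a pair that was barely detected (Ifi208 and Ifi213).

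Of the 9 members, 7 reached a mean normalized count of at least 10, the level above which ratios were examined. Counts were normalized by median-of-ratios size factors. Ratios are given as log2 of KO over WT after adding 0.5 to each normalized count. Behind each ratio stands a 95% interval from exact binomial counting of read pairs, which covers counting error only, because the reads carry no molecular identifiers and the animals were pooled. The counts rest on a total of 52950913 in the WT and 53216727 in the KO library.

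Before the members, the labels were checked. Ucp1 counts were 366473 in WT and 37853 in KO (log2 ratio −2.98), so the library labelled KO was much lower in, but not devoid of, reads assigned to the gene. Y-linked transcripts (Eif2s3y, Kdm5d, Uty, Ddx3y) were at 0 counts in WT, where up to 6 counts each could have been missed, and at 491 to 3446 counts in KO. The X-inactivation transcript Xist had 32380 and 16478 counts. Both libraries go against the description of all animals as male, WT with no Y-linked reads and KO with Xist beside Y-linked reads. Sex and genotype cannot be told apart here, and whether the pools were of mixed sex or mislabelled was not tested. All 22 skeletal muscle markers were lower in the KO library (median −2.40), and mitochondrially encoded genes took 22.4% of WT and 36.7% of KO counts. The brown adipocyte markers Cidea, Dio2 and Cox8b were abundant in both but not alike. Dio2 was 4.84-fold and Cidea 1.41-fold higher in KO, and Cox8b was at 81.0% of WT. Of the 8 brown adipocyte markers 5 were above 0 and 3 below (median 0.94), Ucp1 among the latter.

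The p200 family split by direction between the libraries. The 3 most abundant members by counts, Ifi203, Mndal and Ifi207, were lower in KO iBAT, while Ifi204, Ifi211 and Aim2 were higher, each beyond counting error. Ifi209 leaned toward KO within counting error, and Ifi213 and Ifi208 were at the limit of detection. No member reached a 2-fold difference in either direction, whereas among the 15212 examined genes 7.42% were higher and 9.55% were lower by that margin. By counting error alone, 3 of 7 examined members were higher, beside 31.5% of all examined genes, and 3 of 7 were lower, beside 30.5%. So small a set cannot be set apart from those background shares.

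**Figure D1:**
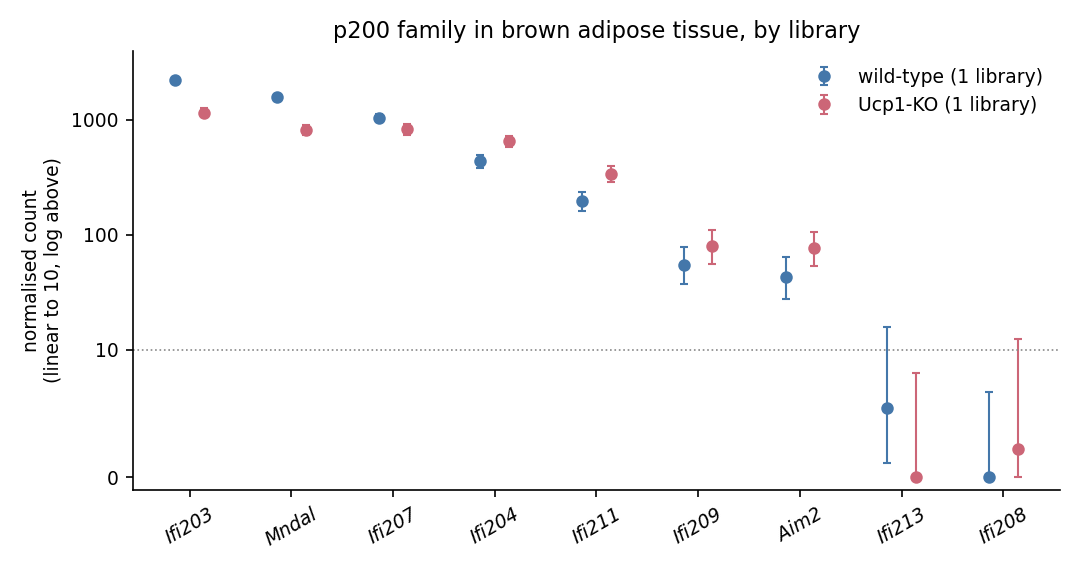
Normalized counts (axis linear to 10 and logarithmic above) of the p200 genes in the WT and the KO library, 1 point a library with exact Poisson counting intervals as bars. Ifi203, Mndal and Ifi207 sit lower in KO, and Ifi204, Ifi211 and Aim2 sit higher in KO.

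Ifi203 (Entrez 15950), a nuclear p200 protein gene, had 2491 counts in the WT and 1041 in the KO library, or 2245 and 1155 normalized counts. The WT library was the higher, and the counting intervals did not overlap. The log2 ratio was −0.96 (interval −1.11 to −0.81), which put the KO library at 51.4% of the WT level (46.3% to 57.0%).

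Mndal (Entrez 100040462), named for its likeness to the human myeloid nuclear differentiation antigen, had 1743 and 738 counts, or 1571 and 819 normalized counts. Here too the WT library was clearly the higher. The log2 ratio was −0.94 (−1.12 to −0.76), a KO level of 52.1% of WT. When libraries were scaled by total counts instead, all ratios moved down, with the median of all genes at −0.31, so that ratios given here between 0 and 0.31 change sign or vanish. Ifi203 (−1.27) and Mndal (−1.25) then passed the 2-fold line.

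Ifi207 (Entrez 226691), another nuclear member, had 1152 counts in WT and 745 in KO iBAT, or 1038 and 827 normalized counts. The difference had the same direction as for Ifi203 and Mndal and was smaller. Its log2 ratio was −0.33 (−0.52 to −0.14), or 79.6% of WT.

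Ifi204 (Entrez 15951), whose product is linked to STING signaling, had 485 counts in WT and 586 in KO iBAT, or 437 and 650 normalized counts. The KO library was the higher. The log2 ratio was 0.57 (0.32 to 0.82), a 1.49-fold difference.

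Ifi211 (Entrez 381308), listed in RefSeq also as Mnda, had 217 and 307 counts, or 196 and 341 normalized counts, again with KO the higher. The log2 ratio was 0.80 (0.44 to 1.17), or 1.74-fold. Of the 150-base stretches of its transcripts, 40.6% also occur in another gene, 528 of them in Ifi205 and 294 in Ifi204, so the reads of Ifi211 could have been divided among these genes by the counting.

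Aim2 (Entrez 383619), the inflammasome sensor, was low in both libraries, with 48 counts in WT and 69 in KO iBAT, or 43.3 and 76.6 normalized counts. The KO library was the higher by 1.76-fold, with a log2 ratio of 0.82 whose interval ran from 0.03 to 1.64. With total-count scaling the ratio was 0.51 and the interval reached below 0.

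Ifi209 (Entrez 236312), listed in RefSeq also as Pyhin1, had 61 and 72 counts, or 55.0 and 79.9 normalized counts. Its log2 ratio of 0.53 had an interval from −0.20 to 1.28, so no difference was detectable at this depth.

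The 2 remaining members were hardly transcribed into these libraries. Ifi213 (Entrez 623121) had 6 counts in WT and 0 in KO iBAT, and Ifi208 (Entrez 100033459) had 0 and 2. A count of 0 allows up to 6 counts, so no fold is given for either.

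**Figure D2:**
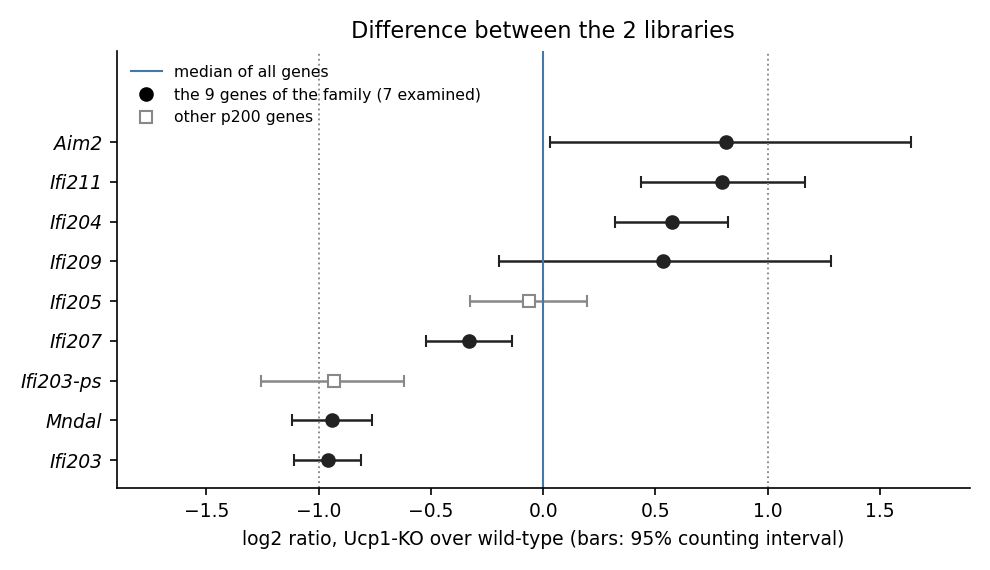
Log2 ratio of KO over WT for each examined p200 gene with its 95% counting interval on read pairs as a bar. Filled points are members, open squares other p200 genes, and dotted lines mark 2-fold differences. The intervals of Ifi203, Mndal and Ifi207 lie below 0, those of Ifi204, Ifi211 and Aim2 above 0, and that of Ifi209 crosses it.

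Summed over the 9 members, counts went from 6203 in WT to 3560 in KO iBAT, from 0.0117% to 0.00669% of each library. The median log2 ratio of the 7 examined members was 0.53, beside a median of all genes of −0.0016, whereas the ratio of their summed normalized counts was −0.50. The signs differ because the median gives each gene the same weight and the sum is carried by Ifi203 and Mndal. The direction of the family as a whole therefore depends on which summary is used.

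The make-up of the family shifted accordingly. Ifi203 gave 40.2% of all member counts in WT (38.4% to 41.9%) and 29.2% in KO iBAT (27.1% to 31.4%). The share of Mndal went from 28.1% to 20.7%. In the opposite direction, Ifi204 went from 7.82% to 16.5% and Ifi211 from 3.50% to 8.62%. Ifi207 held 18.6% and 20.9%, with overlapping intervals. Shares of this kind do not depend on how the libraries are scaled, although each share depends on the others.

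Levels of different members were compared per kilobase of annotated exon, since the transcripts differ in length. In WT iBAT Mndal was the highest, at 383 normalized counts per kb, followed by Ifi203 at 296 and Ifi207 at 284, which could not be separated by counting error on this length. Per kb of the longest transcript instead, Ifi203 was at 442 and apart from Ifi207 at 284. Ifi204 at 119 and Ifi211 at 104 came next and also overlapped, ahead of Ifi209 at 15.1 and Aim2 at 6.58. In KO iBAT the top of this order closed up on the same exon length. Ifi207 stood at 226 normalized counts per kb, Mndal at 199.7, Ifi211 at 181, Ifi204 at 178 and Ifi203 at 152, each overlapping its neighbor in the order, with Ifi209 at 21.9 and Aim2 at 11.6 far below. The KO order depended on the length used. Per kb of the longest transcript it ran Mndal at 380 normalized counts, Ifi204 at 269, Ifi203 at 227, Ifi207 at 226 and Ifi211 at 181, and per kb of exon not shared with another gene Ifi211 led at 305. These lengths are those of GENCODE M39, and the annotation behind the counts is not given in the sources used here.

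Pairs of genes were then compared by the share of the first in their summed counts, a measure that no scaling of the libraries can move. Mndal made up 41.2% of the Mndal and Ifi203 counts in WT (39.1% to 43.3%) and 41.5% in KO iBAT (38.2% to 44.8%). The proportion of these 2 genes thus differed by less than counting error. The pseudogene Ifi203-ps kept pace with both, at 24.3% and 24.4% of its sum with Mndal and 18.4% and 18.6% of its sum with Ifi203. Ifi203 and Mndal share the printed promoter stretch. Ifi207 and Ifi211, whose promoter windows shared 85.9% of their letters, had log2 ratios of opposite sign (−0.33 and 0.80). Any link between promoter letters and these ratios was not tested.

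Between Mndal and Ifi203 on the chromosome lies Ifi211, and it did not keep this proportion. Mndal made up 88.9% of the Mndal and Ifi211 counts in WT (86.8% to 90.8%) but 70.6% in KO iBAT (66.5% to 74.5%). Ifi211 made up 8.01% of the Ifi211 and Ifi203 counts in WT and 22.8% in KO iBAT. A gene that was higher in KO iBAT was therefore flanked on both sides by genes that were lower.

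The same held on the low-coordinate side of the pseudogene. Ifi207 made up 70.4% of the Ifi207 and Ifi204 counts in WT and 56.0% in KO iBAT, and Ifi204 made up 46.4% and 71.1% of its sum with Ifi203-ps. Of 8 neighboring pairs of p200 genes, 5 had shares whose counting intervals were apart between the libraries and 3 had overlapping ones. Of all examined genes, 31.5% were higher and 30.5% lower beyond counting error. No matching share for other gene pairs was computed, so whether 5 of 8 is unusual is not known. The low-coordinate end of the cluster was less resolved, with Aim2 at 44.0% and 48.9% of its sum with Ifi209. At the other end, Ifi203 made up 81.4% of the Ifi203 and Ifi205 counts in WT and 70.1% in KO iBAT, with intervals apart.

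**Figure D3:**
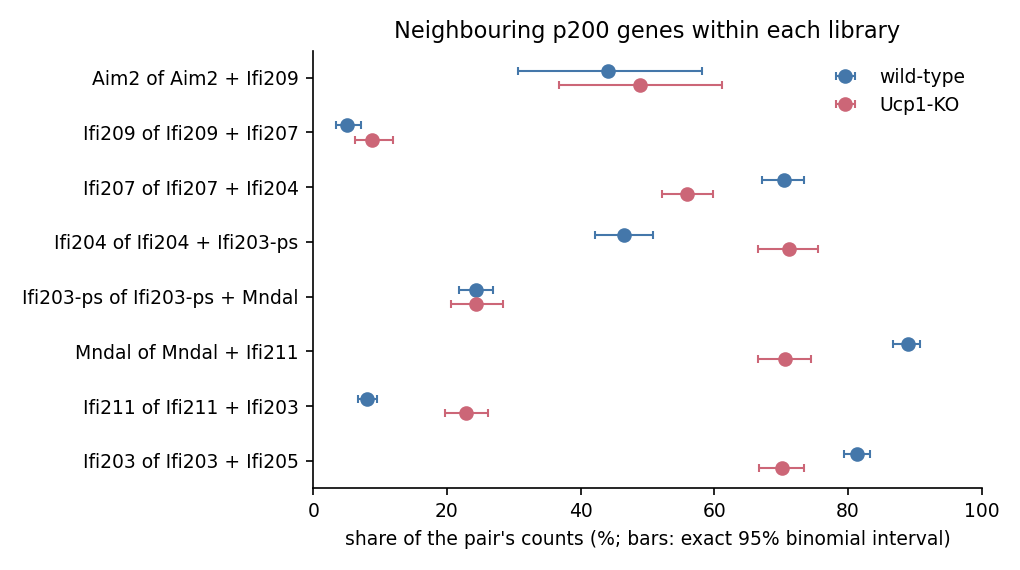
Share of the first gene in the summed counts of each of the 8 neighboring pairs (percent), in the WT and the KO library, with exact binomial intervals as bars. Ifi203-ps with Mndal lies at 24.3% and 24.4%, whereas Mndal with Ifi211 lies at 88.9% and 70.6%.

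**Figure D4:**
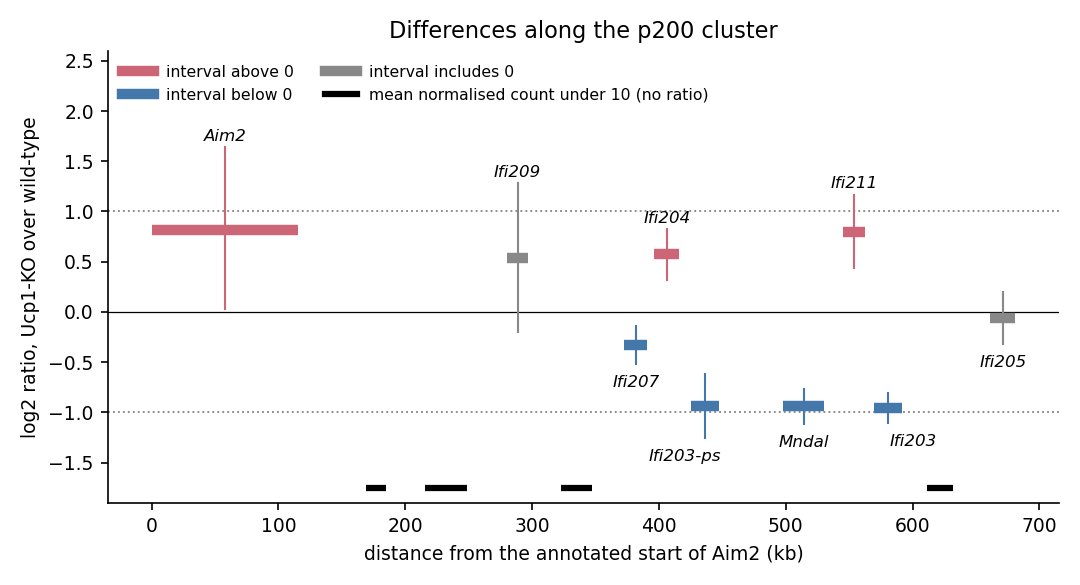
Log2 ratio of KO over WT for the p200 genes along chromosome 1, plotted by distance in kb from the annotated start of Aim2. Horizontal blocks are gene spans, vertical lines are counting intervals, and black blocks are genes too low for a ratio. Ifi204 and Ifi211 lie above 0 among neighbors that lie below it.

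Near-identical sequence and overlapping annotation limit some of these readings. No 150-base stretch of Ifi207 or Aim2 occurs in another gene, and the share was 2.43% for Ifi203 and 2.19% for Mndal, so these members could be counted nearly in full on their own. The share was 15.0% for Ifi204, of which 8.03% lay in transcripts of another gene and the rest only in genomic sequence around the cluster. It was 9.02% for Ifi209 and 51.0% for the pseudogene Ifi203-ps, whose values are the least certain. Of the Ifi203-ps stretches, 1034 also occur in Gm71342 and 164 in Gm71343. The exons of these 2 genes overlap those of Ifi203-ps on the same strand, over 1644 bases. Only 29 of its stretches occur in Ifi203. How reads with several matches were handled is not given in the sources used here.

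Other genes of the family in the tables were Ifi205, Ifi203-ps, Ifi202b and Ifi214. Ifi205 (Entrez 226695) had 570 counts in WT and 443 in KO iBAT, with a log2 ratio of −0.06 (−0.32 to 0.19), so no difference was detectable. Ifi203-ps (Entrez 100504287) had 560 and 238 counts (log2 ratio −0.93, −1.26 to −0.62). Ifi202b and Ifi214 had 0 counts in both libraries.

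AIM2 acts together with the adaptor ASC and inflammatory caspases, and of the 10 genes listed for this inflammasome and its relatives, 8 were examined. Beyond counting error 2 were higher and 2 lower, beside 31.5% and 30.5% of all examined genes. The median log2 ratio was −0.09, which became 0.36 when genes under a mean of 50 were left out. Pycard, the gene of the adaptor ASC, had 46 counts in WT and 32 in KO iBAT, and Casp1 had 59 and 54, with intervals of the log2 ratio that included 0. Casp4, the caspase of the non-canonical inflammasome, had 21 and 143 counts and a log2 ratio of 3.03 (2.12 to 4.16). Casp8 had 1799 and 2141 counts (0.55, 0.42 to 0.68).

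Among the products released or cut by the inflammasome, Il18, an inflammasome-processed cytokine, had 60 counts in WT and 7 in KO iBAT, a log2 ratio of −2.72 (−4.93 to −1.21). Gsdmd, the pore-forming gasdermin, had 473 and 301 counts (−0.35, −0.66 to −0.05). Il1b was too low to examine, with 10 and 5 counts. Of the other sensors, Nlrp3 had 12 and 10 counts and Nlrc4 had 33 and 12, both with intervals that included 0. The ratios of the sensor Aim2 and its adaptor Pycard had opposite signs, the latter within counting error. Their intervals overlapped (0.03 to 1.64 for Aim2, −1.24 to 0.76 for Pycard), so the 2 ratios could not be told apart.

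The second DNA-sensing route of the cell runs through cGAS and STING. All 12 genes of this list were examined, with a median of 0.03 (−0.27 with total-count scaling). Beyond counting error 3 were higher and 2 lower, beside 31.5% and 30.5% of all examined genes. Cgas itself had 118 and 97 counts (log2 ratio 0.02, −0.56 to 0.59). Sting1, the adaptor on the endoplasmic reticulum, had 419 and 490 counts (0.52, 0.25 to 0.80), and the kinase gene Tbk1 had 2191 and 2206 counts (0.31, 0.19 to 0.43). Ifi204 and Sting1 were therefore both higher in KO iBAT, at 1.49-fold and 1.44-fold. With total-count scaling the log2 ratio of Ifi204 was 0.27, and Sting1 was not recomputed. Any link between the 2 was not tested.

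In the same list, Xrcc5 had a log2 ratio of 0.40 (0.09 to 0.70), and its DNA repair partners Xrcc6 (−0.50, −0.56 to −0.44) and Prkdc (−0.50, −0.70 to −0.30) were lower. The others, Irf3 (−0.08), Trex1 (0.05), Ddx41 (−0.06), Mre11a (−0.12), Ikbke (0.58) and Zbp1 (0.63), had intervals that included 0.

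The p200 genes are interferon targets, so their ratios were set beside the rest of that response. Of 50 genes of the type I interferon response 49 were examined, and 22 were lower and 2 higher beyond counting error, with a median of −0.18. Among its most abundant genes, Ifi27 (−0.40), Ifitm3 (−0.30) and Ifi27l2a (−1.60) were lower in KO iBAT. Ifi27l2a had 4651 counts in WT and 1247 in KO iBAT. Of 16 interferon receptor and signaling genes, 4 were higher and 6 lower beyond counting error, with a median of −0.06. The receptor genes Ifngr1 (−0.31) and Ifnar2 (−0.02) and the kinase gene Jak1 (0.07) were among its most abundant members, and the whole list ran from −0.43 to 1.93. Ifi204, Ifi211 and Aim2 thus differed in sign from most of the interferon-response list, and Ifi203, Mndal and Ifi207 shared its sign. Of all examined genes 31.5% were higher and 30.5% lower beyond counting error, and no test of the difference between lists was possible.

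**Figure D5:**
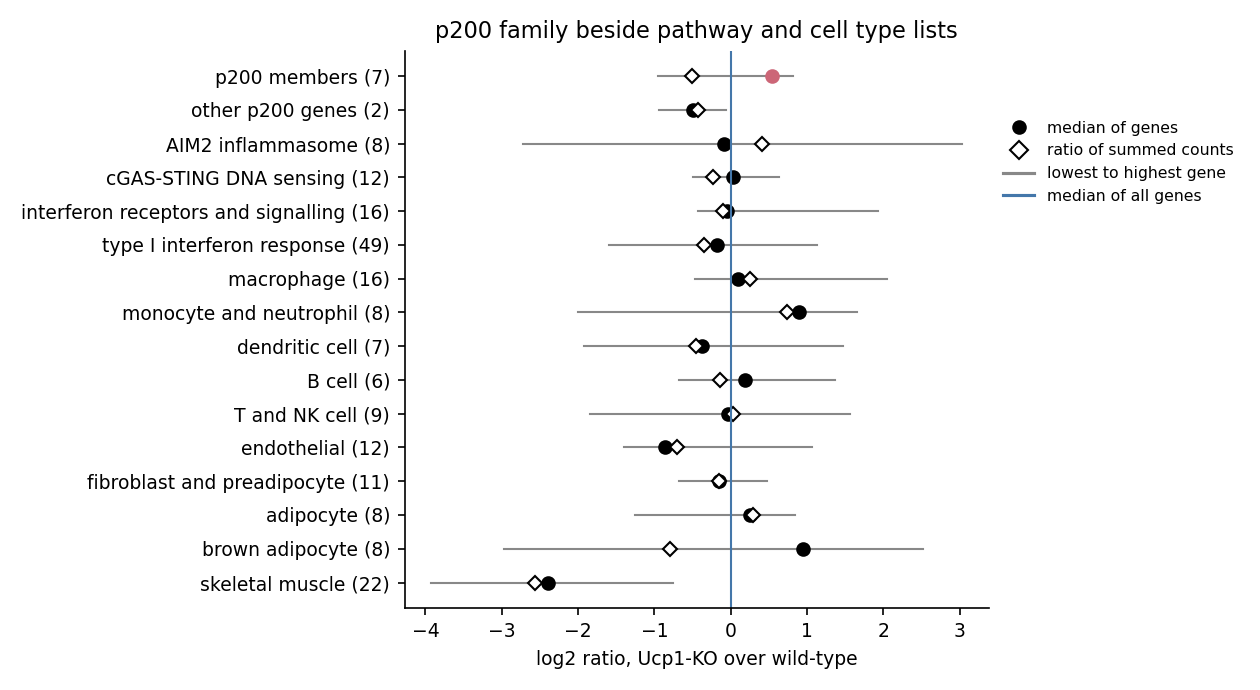
Log2 ratio of KO over WT by list, with the number of genes examined in brackets, the median of genes as a filled point, the ratio of summed counts as a diamond and a line from the lowest to the highest gene. The p200 members have a median of 0.53 and a ratio of sums of −0.50, on opposite sides of the median of all genes.

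Which cells of the tissue carried p200 transcripts cannot be read from bulk RNA, and fewer cells of a type and less RNA per cell cannot be told apart. Marker lists are set alongside, counting only genes beyond counting error, beside 31.5% higher and 30.5% lower of all examined genes. Of 16 macrophage markers 6 were higher and 2 lower beyond counting error, while by sign alone 9 were above 0 and 7 below. Their median was 0.10, but −0.21 with total-count scaling, with summed normalized counts of 9204 in WT and 10951 in KO iBAT. Lyz2 had 1979 and 2824 counts, whereas Cd163, a resident macrophage receptor, had 1093 and 643. Of 12 monocyte and neutrophil markers 8 were examined, and 3 were higher and 1 lower (median 0.89). By sign alone 5 were above 0 and 3 below, and the list ran from −2.01 to 1.66. Among those higher in KO iBAT were Ccr2 at 178 and 277 counts and S100a9 at 32 and 83.

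Markers of other cell types differed in direction, again counting only genes beyond counting error. Of 12 endothelial markers 10 were lower and 2 higher (median −0.87), with Kdr at 33059 counts in WT and 14683 in KO iBAT. Of 11 fibroblast and preadipocyte markers 9 were lower and 1 higher (median −0.16), and of 7 dendritic cell markers 3 were lower and 1 higher (median −0.38). The 6 B cell markers had a median of 0.19 (−0.11 with total-count scaling) and the 9 T and NK cell markers one of −0.04, and both changed sign when low genes were left out at a mean of 50. That minimum left only Il7r of the T and NK cell list (log2 ratio 0.64, −0.07 to 1.36). Among the dendritic cell markers, Bst2 is itself an interferon target. The part of any of these cell types, of muscle admixture or of the sex difference in the p200 ratios was not tested.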

How the data were processed

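RNA of pooled iBAT was extracted with a column kit and made into directional, poly(A)-enriched libraries, 1 for each genotype. Per the labels and the study's methods, the authors trimmed reads with Trim Galore, aligned them to mm39 (GRCm39) with HISAT2 and counted them with featureCounts. Tool versions, strand setting, annotation and the handling of multiply matched reads are not given in the sources used here. The deposited values are raw counts per gene, whole numbers with no normalization. Of genes with 1 to 10 counts, 70.7% (wild-type) and 73.4% (Ucp1-KO) had an even number, against 49.9% and 50.2% at 100 to 1000 counts. On the ground of the low counts, counts at every level were read as read pairs of 2 for the counting intervals. Genes without a symbol held 0.156% and 0.121% of counts, and 0 columns were left unused.

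Size factors (1.11 and 0.901) came from DESeq2 1.42.0 in R 4.3.3, and TMM factors from edgeR 4.0.16 served as an alternative. No test was run across genes, since each genotype had 1 library. Ratios were computed on normalized counts with a pseudocount of 0.5, for genes with a mean of at least 10, in Python 3.11.15 with SciPy 1.17.1. Intervals are exact at 95%, Poisson for counts and binomial for shares and ratios. They cover counting error only, and a count of 0 was read as allowing 3 read pairs. The scripts were tested on simulated data. Promoter windows came from RefSeq (GRCm38.p6) and were matched letter by letter to GRCm39. Exon lengths came from GENCODE M39, and shared 150-base stretches from its transcripts and the GRCm39 sequence around the cluster.

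All members, the other p200 genes and the genes of both DNA-sensing lists were eligible by name, plus the 4 most abundant genes of every other list, expressed genes within 1000 kb of the cluster, and genes that check the labels. Some genes that this rule names are not reported here. The members and lists were chosen with earlier results of these data known. No table of protein sequences was used here.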

Additional observations from a re-analysis of the deposited data

How the results depend on the processing

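No paired analysis was possible because a single library stood for each genotype, and none could be left out for the same reason. The direction of the ratio of each of the 7 examined members was kept under TMM factors, total counts, total counts without mitochondrially encoded and muscle genes, and a pseudocount of 5. Scaling by total counts lowered the median of all genes to −0.31. It put 2 members (Ifi203 and Mndal) at least 2-fold lower in place of 0, left 2 members higher beyond counting error in place of 3, and changed the split of all genes to 732 at least 2-fold higher and 2320 lower, from 1128 and 1453. It also turned the macrophage median to −0.21, the adipocyte median from 0.25 to −0.06 and the cGAS-STING median to −0.27. Taking counts as deposited instead of read pairs put 4 members higher beyond counting error. With no low-count filter, 2187 genes were at least 2-fold higher and 2844 lower, and with a minimum mean of 50 these were 617 and 811. That minimum also turned the medians of the T and NK cell list (0.64, from Il7r alone), the B cell list (−0.48) and the AIM2 inflammasome list (0.36). The ratio of summed counts gave −0.50 for the members in place of a median of 0.53. With only unshared exon length, Ifi204 and Ifi211 changed places in the wild-type order, and with the longest transcript that order of all 7 was the same, while the Ucp1-KO order changed under both lengths. Depth limited Ifi208 and Ifi213, which could not be compared, and Ifi209 and Aim2, whose intervals were wide.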

Other observations

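The genes around the p200 cluster were also measured. Within 1000 kb of the outermost members 41 further genes were listed, of which 8 had a mean normalized count of at least 10. Beyond counting error 2 were higher and 2 lower in the Ucp1-KO library, beside 31.5% and 30.5% of all examined genes. Ackr1, an atypical chemokine receptor of venular endothelium and red cells, had 70 counts in WT and 119 in KO iBAT (log2 ratio 1.06, 0.44 to 1.71). Cadm3, a cell adhesion gene whose annotated span overlaps that of Aim2 on the opposite strand, had 356 and 202 counts (−0.52, −0.88 to −0.16). Pigm (0.16), Igsf9 (0.19), Tagln2 (−0.15) and Dusp23 (−0.21) had small ratios, and Slamf9 had 15 and 30 counts (1.27), with an interval that included 0.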
